A study of Mus musculus with 16 samples.

Results

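Chromatin accessibility was examined at the promoters of 60 genes of mitosis and the G2/M transition in activated mouse B cells with 1 or no intact copy of Brg1. The genes were taken by symbol from a mouse (GRCm38) gene annotation, and a gene counted as having a promoter peak in a library when a deposited ATAC-seq peak touched a stretch that began 1000 bp before an annotated start site of the gene and ended 100 bp after it. All 60 were found in the annotation, among 21938 protein-coding genes on chromosomes 1 to 19, X and Y, and all 60 had a promoter peak in at least 1 library, as did 10476 of the protein-coding genes. Each of the 60 had a single promoter region once overlapping peaks of the libraries were joined. For 14 of them the region also met the promoter of another protein-coding gene, such as Cstf1 at Aurka, Usp5 at Cdca3 or Spef1 at Cdc25b, and such a peak cannot be assigned to either gene.

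ATAC-seq marks open chromatin by the transposase Tn5, which inserts sequencing adapters where DNA is accessible. Brg1, encoded by Smarca4, is an ATPase of the SWI/SNF complex, which moves and evicts nucleosomes. The 8 libraries came from splenic B cells of C57BL/6 mice aged 7 to 14 weeks, 4 from Brg1 fl/+ and 4 from Brg1 fl/fl animals. Animals of both genotypes carried the CD23-Cre transgene, which deletes floxed alleles in mature B cells, so the Brg1 fl/+ controls had themselves lost 1 Brg1 allele, and no library from mice with both alleles intact was analysed here. The cells were isolated by magnetic separation with CD43 beads and stimulated with 10 µg/mL LPS, a ligand of TLR4, and 20 ng/mL IL-4, a T helper cytokine, for 72 h according to the sample labels and for 96 h according to the series design. Each library was made from 50000 cells. How many mice the libraries came from is not given in the sources used here, so the spread between libraries of a genotype may be partly technical, and the peak lists cannot show how completely Brg1 was deleted.

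Entry into mitosis is driven by Cdk1 bound to cyclin B, which is held inactive by inhibitory phosphorylation until Cdc25 phosphatases remove it. Aurora and Polo-like kinases then build the spindle, the checkpoint proteins delay anaphase until every kinetochore is attached, and the anaphase-promoting complex ends mitosis by marking cyclin B and securin for destruction. Many of these genes are transcribed late in the cell cycle under the DREAM and MuvB complexes, which bind the cell cycle homology region (CHR), a short promoter element often found beside CCAAT boxes bound by NF-Y.

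The promoter sequences of 9 of the genes are shown because the comparisons below turn on them. Each is the 150 bases before the annotated start site, read 5′ to 3′ on the strand of the gene from the RefSeq copy of GRCm38, with the CHR (TTTGAA) and CCAAT motifs in capitals in either orientation. They lie at chr13:100786571-100786720 (minus strand) for Ccnb1, chr9:61946775-61946924 (minus strand) for Kif23, chr14:67715611-67715760 (minus strand) for Cdca2, chr15:102296116-102296265 (plus strand) for Espl1, chr9:70421548-70421697 (minus strand) for Ccnb2, chr10:69352939-69353088 (minus strand) for Cdk1, chr14:46760391-46760540 (plus strand) for Cdkn3, chr4:118437353-118437502 (minus strand) for Cdc20 and chr11:69045497-69045646 (plus strand) for Aurkb.
Ccnb1: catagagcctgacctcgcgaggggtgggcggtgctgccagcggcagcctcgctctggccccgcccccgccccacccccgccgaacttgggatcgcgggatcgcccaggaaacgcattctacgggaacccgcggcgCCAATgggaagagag
Kif23: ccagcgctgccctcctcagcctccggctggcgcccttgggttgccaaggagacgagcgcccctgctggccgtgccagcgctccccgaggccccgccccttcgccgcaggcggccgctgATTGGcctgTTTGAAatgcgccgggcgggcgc
Cdca2: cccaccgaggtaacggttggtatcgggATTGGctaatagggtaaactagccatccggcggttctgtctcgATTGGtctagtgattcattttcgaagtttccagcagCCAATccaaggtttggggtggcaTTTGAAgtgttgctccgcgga
Espl1: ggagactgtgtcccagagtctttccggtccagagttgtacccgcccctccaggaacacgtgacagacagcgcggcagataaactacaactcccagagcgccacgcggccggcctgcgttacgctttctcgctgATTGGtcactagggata
Ccnb2: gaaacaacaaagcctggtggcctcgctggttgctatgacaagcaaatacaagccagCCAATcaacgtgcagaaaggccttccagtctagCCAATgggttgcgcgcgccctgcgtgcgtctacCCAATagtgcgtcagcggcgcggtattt
Cdk1: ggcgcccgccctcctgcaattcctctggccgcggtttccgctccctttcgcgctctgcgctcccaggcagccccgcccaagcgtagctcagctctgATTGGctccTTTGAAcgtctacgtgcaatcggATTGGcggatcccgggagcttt
Cdkn3: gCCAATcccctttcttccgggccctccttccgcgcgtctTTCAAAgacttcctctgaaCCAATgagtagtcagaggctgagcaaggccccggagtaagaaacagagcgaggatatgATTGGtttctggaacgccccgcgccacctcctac
Cdc20: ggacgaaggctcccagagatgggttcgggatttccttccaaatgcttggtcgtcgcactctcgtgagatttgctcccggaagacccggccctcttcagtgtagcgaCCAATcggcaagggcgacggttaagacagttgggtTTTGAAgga
Aurkb: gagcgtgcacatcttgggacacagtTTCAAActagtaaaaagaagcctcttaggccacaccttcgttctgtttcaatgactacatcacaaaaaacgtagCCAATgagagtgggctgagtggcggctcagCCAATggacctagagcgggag

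Ccnb2 had 3 CCAAT boxes, with first bases at −94, −61 and −28, and a CHR at −174, upstream of the stretch shown, and at −3, running past its end. Cdk1, Kif23, Cdca2 and Cdc20 also had a CHR within 50 bases before the start, at −45, −23, −21 and −9. Cdkn3 and Aurkb had theirs farther upstream, at −111 and −125 and in the reverse orientation (TTCAAA), and in Espl1 the motif began at the start site itself, just beyond the stretch shown. Ccnb1 had 2 CCAAT boxes, at −15 and 18, and the letters TTTGAA were not in its window of 250 bases before to 50 after the start. Ccnb1 has 7 annotated start sites, and the window was set by a start used by 1 transcript.

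Over that same window, the CHR was found in 33 of the 60 promoters (55.0%), against 16.1% of 21853 protein-coding promoters. CCAAT was found in 45 (75.0%, against 38.9%), and both motifs in 28 (46.7%, against 7.06%). Among protein-coding genes with a promoter peak in any library the shares were 12.1% for the CHR and 39.9% for CCAAT. The E2F motif (TTTCGCGC or TTTGGCGC) was in 1 of the 60 promoters (1.67%, against 1.03%), that of Cdk1. The GC box (GGGCGG) was in 42 (70.0%, against 43.9% of all and 65.1% of those with a peak) and the TATA box (TATAAA) in 2 (3.33%, against 12.6%). Among 83 other mitotic genes the CHR was in 38.6%, CCAAT in 54.2%, both in 27.7% and the GC box in 68.7%, so much of the difference from all promoters was shared by these. The shares describe the sequences and not bound factors. Of the 25 genes with a peak in all 8 libraries, 17 had a CHR and 18 a CCAAT box. Of the 35 without, 16 had a CHR and 27 a CCAAT box. The ratio of observed to expected CpG dinucleotides had a median of 0.866 over the 60, 0.535 over all protein-coding promoters and 0.781 over those with a peak. The lowest ratios among the 60 were those of Cdca8 (0.0769) and Kif4 (0.0822). For both genes the searched window did not reach the joined peak region, so these ratios do not describe the open stretch.

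The libraries differed in how much they detected. The deposited lists held 6271 to 14614 peaks, and 38 to 60 of the 60 genes had a promoter peak in a Brg1 fl/+ library and 37 to 49 in a Brg1 fl/fl library. In order of library number the counts were 60, 55, 38 and 47 for Brg1 fl/+ and 49, 37, 47 and 49 for Brg1 fl/fl. The ranges overlapped, and the means of 50 ± 9.63 and 45.5 ± 5.74 (SD, n = 4 each) differed by −4.5 genes, less than the spread within the Brg1 fl/+ group. The same held for protein-coding genes as a whole, of which 77.6 ± 18.5% and 69.7 ± 9.12% (SD, n = 4 each) of the 10476 had a peak. Brg1 fl/+ libraries 1 and 2 decided the direction. Against Brg1 fl/+ libraries 3 and 4 alone the difference was 3 genes in favour of Brg1 fl/fl, against libraries 1 and 2 alone it was −12, and with every list shortened to its 6271 strongest peaks it was −1.75. The names of the deposited lists pair libraries 1 with 2 and 3 with 4 of each genotype, and what the pairs stand for is not given in the sources used here. The read depth is unknown, since the lists hold peaks alone. The lowest background recovered at a summit of each library was divided by the length of its shortest peak. In order of library number this gave 6.47, 4.14, 2.76 and 3.60 fragments per kb for Brg1 fl/+. For Brg1 fl/fl it gave 6.89, 3.39, 6.27 and 5.95, and the part of this background in the counts was not tested.

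**Figure D1:**
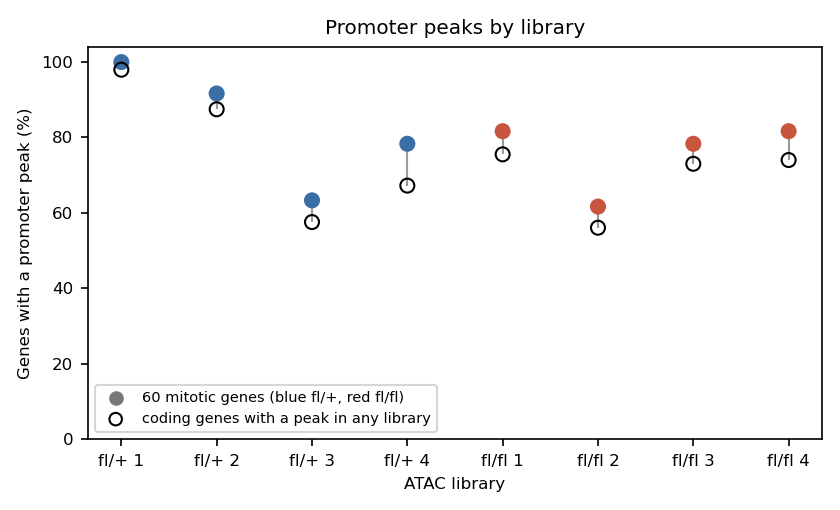
Share of genes with a promoter peak (%) in each of the 8 ATAC libraries, as filled points for the 60 mitotic genes (blue Brg1 fl/+, red Brg1 fl/fl) and open points for the 10476 protein-coding genes with a peak in any library. The mitotic genes lay above the open points in every library, and both fell and rose together, from 100% in Brg1 fl/+ library 1 to 61.7% in Brg1 fl/fl library 2.

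The cells carried peaks at some B cell promoters. The B cell markers Pax5, Cd74 and Ms4a1 had a promoter peak in all 8 libraries, and Cd79b, Cd22 and Blk had none in any list. All 6 T cell, 6 myeloid and 4 NK cell markers, Cd3e, Csf1r and Ncr1 among them, had no promoter peak in any library.

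Peaks at the mitotic promoters were centred close to the start of transcription and were stronger than most. The median position of the summit, the base with most fragments, was within 250 bp of the gene's start for 57 of the 60 genes and upstream of it for 54, with a median of −65.3 bp. Ranked by q-value within its own list, the median mitotic peak stood at the 25.4th percentile from the top in Brg1 fl/+ library 1, where the median promoter peak stood at the 36.7th. It stood at the 32.2nd to 42.9th percentile in the other 7 libraries, where promoter peaks stood at the 41.2nd to 45.9th. The values below are the fold over local background that the peak caller gave at the summit. The recovery of fragment numbers took this fold as the fragments plus 1 over the background plus 1. The lowest recovered background of a library was 0.541 to 1.67 fragments, and the weight of the added 1 in the folds was not tested. Over promoter peaks the 5th percentile of the fold was 4.49 to 5.36 across the libraries. Peaks with a fold near 5 were thus close to the limit of detection, and a gene without a peak was not shown to be closed.

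**Figure D2:**
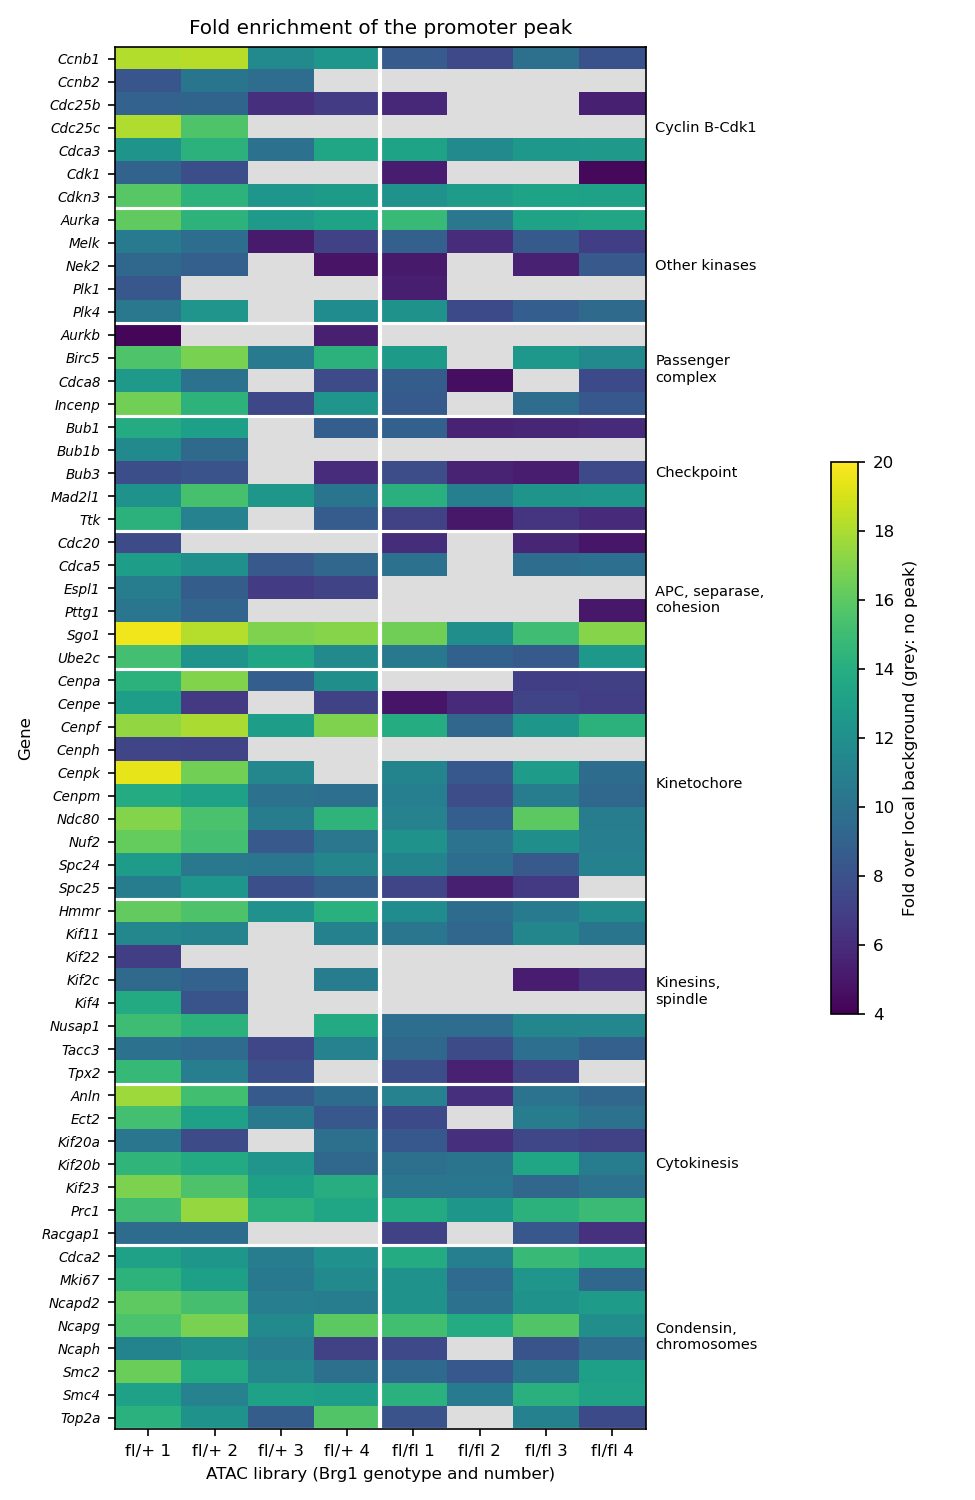
Fold over local background of the promoter peak (colour, from 4 to 20) for the 60 mitotic genes, grouped by role, in the 4 Brg1 fl/+ and the 4 Brg1 fl/fl libraries, with grey where a library had no peak. Of the 60 rows, 25 are complete, and in Brg1 fl/+ library 3 and Brg1 fl/fl library 2 the grey cells are most frequent.

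A promoter peak was present in all 8 libraries for 25 of the 60 genes (41.7%), against 46.1% of protein-coding genes with a peak in any library. It was present in fewer libraries of Brg1 fl/fl than of Brg1 fl/+ for 19 genes (31.7%, against 32.4%), in more for 11 (18.3%, against 11.5%), and in no Brg1 fl/fl library for 8 (13.3%, against 17.4%). These shares turned on single settings. Without Brg1 fl/+ library 3 the share found in more was 6.67% (4 genes), against 8.10%, with a −log10 q of at least 10 it was again 6.67%, against 9.07%, and with lists of equal length it was 16.7% (10 genes), against 19.2%. With lists of equal length the share found in fewer was 26.7% (16 genes), against 18.95%. Espl1 was the single gene among them with a peak in all 4 Brg1 fl/+ and no Brg1 fl/fl library, a pattern shared by 11 of the 10476 protein-coding genes (0.105%).

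For the 25 genes with a peak in every library, the fold was compared between genotypes on the log2 scale after each library was centred on its median, together with all 4244 promoter regions detected in all 8 libraries. By limma with Benjamini-Hochberg adjustment over all regions, 1 of the 25 was lower in Brg1 fl/fl at an adjusted p under 0.05 and 0 were higher, against 1.96% of all regions lower and 2.24% higher. An unadjusted p under 0.05 was reached by 4 of the 25, against 22% of all regions. The median difference was 0.06 over the 25 and 0.02 over all regions, with 10 of the 25 below 0. Without centring, all regions shifted by a median of −0.18, the calls became 137 lower and 1 higher in place of 83 and 95, and the median of the 25 became −0.15. A count of 1 among 25 was near the background share. In the wider set of 5940 regions detected in at least 3 libraries of each genotype, where a missing library was left out of a region's fit, 1 of 44 mitotic genes was lower (Ccnb1) and 1 higher (Cdca2, 0.39, limma adjusted p = 0.0293), or 2.27% each way, against 1.84% of all those regions lower and 3.32% higher. In bulk cells, fewer cells with an open promoter and less opening per cell cannot be told apart.

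**Figure D3:**
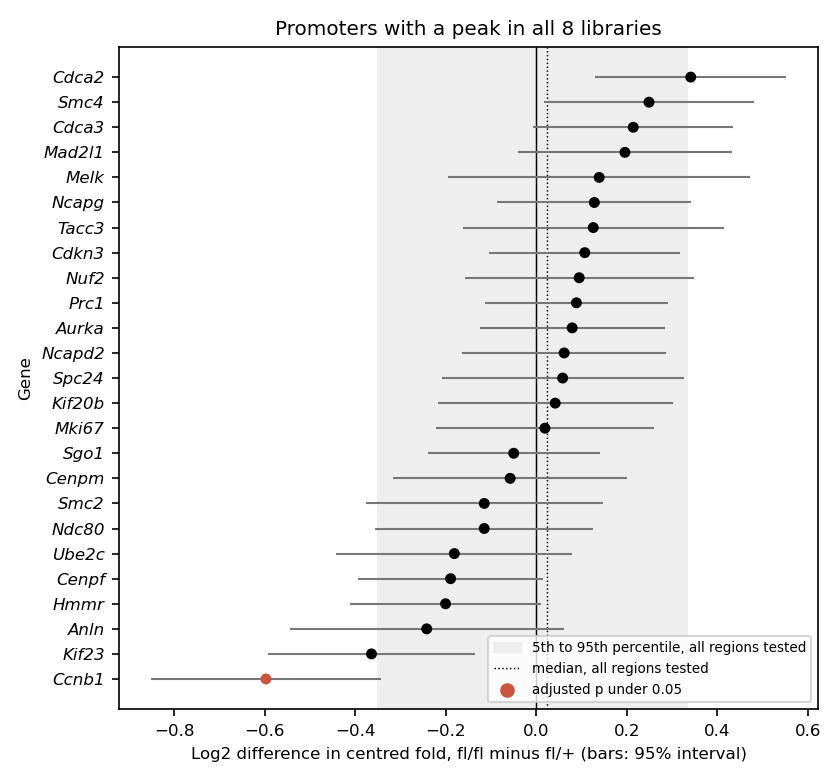
Log2 difference in centred fold, Brg1 fl/fl minus Brg1 fl/+, for the 25 mitotic promoters with a peak in all 8 libraries, with 95% intervals from limma, the 5th to 95th percentile of all 4244 regions in grey (−0.35 to 0.33) and their median as a dotted line. Ccnb1, in red, lay at −0.60 below the grey band with an interval of −0.85 to −0.34, and the other 24 promoters did not pass the adjusted threshold.

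The cyclin B-Cdk1 group held Ccnb1, the gene called among the 25 tested. Ccnb1, which encodes cyclin B1, the regulatory partner of Cdk1, had folds of 18.2, 18.3, 11.6 and 12.4 in Brg1 fl/+ and 8.61, 7.53, 9.90 and 8.04 in Brg1 fl/fl libraries. Every Brg1 fl/fl library lay below every Brg1 fl/+ library, with and without centring, and Brg1 fl/+ libraries 1 and 2 were well above 3 and 4. The centred log2 fold fell by 0.60 ± 0.13 (SE; limma, adjusted p = 0.00998), to 0.661 times the control. It remained below the control without Brg1 fl/+ libraries 1 and 2 and without library 2 alone, but no longer passed the threshold (−0.43, limma adjusted p = 0.199, and −0.53, adjusted p = 0.0676). Over the 19 alternatives that tested it, the limma adjusted p was 0.00645 to 0.199.

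Cdkn3, a phosphatase that acts on Cdk1 and Cdk2, had folds of 15.8, 14.3, 12.4 and 12.7 in Brg1 fl/+ and 12.2, 12.8, 13.3 and 13.1 in Brg1 fl/fl libraries. These values overlapped, and the centred difference was 0.11 with a 95% interval of −0.10 to 0.32 (limma, adjusted p = 0.581). Cdca3, a trigger of Wee1 degradation whose promoter region also covers the start of Usp5, had 12.3, 14.3, 10.0 and 13.5 in Brg1 fl/+ and 13.3, 11.6, 12.5 and 12.6 in Brg1 fl/fl libraries. After centring all 4 Brg1 fl/fl values of Cdca3 lay above the control values, by 0.21 (limma, adjusted p = 0.240).

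The other 4 genes of the group were missed in part of the libraries. Ccnb2, encoding cyclin B2, had a peak in Brg1 fl/+ libraries 1, 2 and 3, with folds of 8.26, 10.2 and 9.73, and in no Brg1 fl/fl library. Cdk1 itself had folds of 9.07 and 7.86 in Brg1 fl/+ libraries 1 and 2 and of 5.19 and 4.34 in Brg1 fl/fl libraries 1 and 4. Cdc25b, a phosphatase that activates cyclin-dependent kinases, had 9.02, 9.16, 6.16 and 6.85 in Brg1 fl/+ libraries and 5.80 and 5.38 in Brg1 fl/fl libraries 1 and 4. Where Cdk1 and Cdc25b were detected, the Brg1 fl/fl folds were below all the control folds, but these are values of the libraries that passed the peak threshold. They are also deposited folds, which ran lower in Brg1 fl/fl over all tested regions. The share of all incomplete regions that separated in this way is not given here. Cdc25c, which removes the inhibitory phosphates from Cdk1, had folds of 18.1 and 15.6 in Brg1 fl/+ libraries 1 and 2 and no peak in the other 6. Of 10324 promoter regions, 727 (7.04%) were detected in Brg1 fl/+ libraries 1 and 2 alone. Among these 727, only that of Cdc25c had a fold of at least 15 in both libraries, a cut just below its weaker fold. The Cdc25c peak was thus missing from 2 of 4 control libraries as well as from all Brg1 fl/fl libraries.

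**Figure D4:**
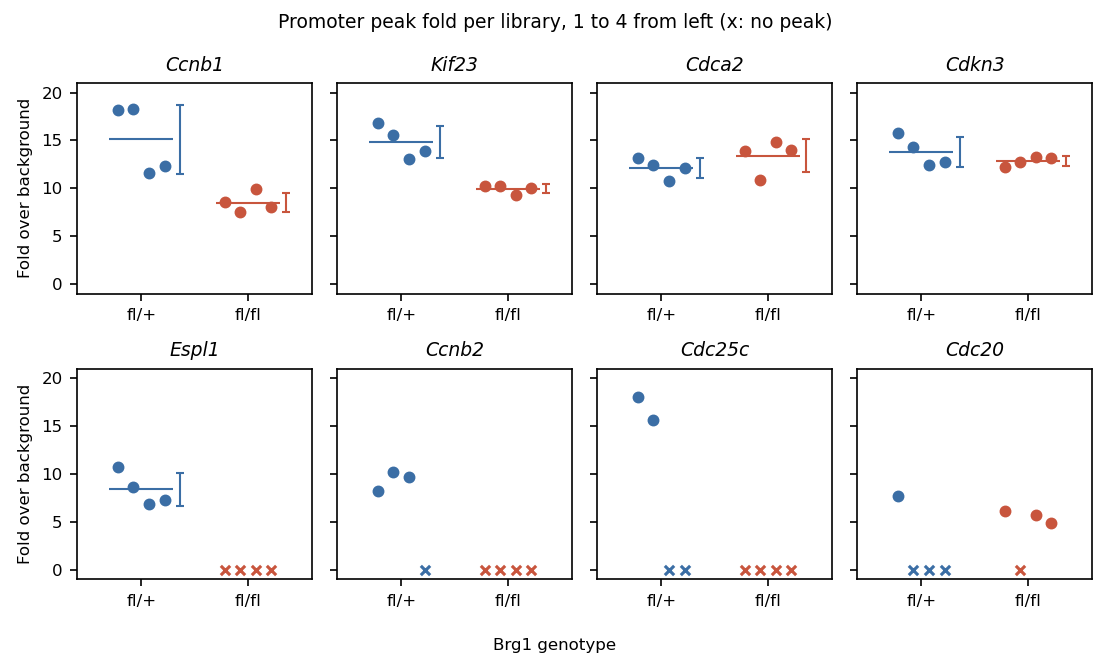
Fold over local background at the promoters of Ccnb1, Kif23, Cdca2, Cdkn3, Espl1, Ccnb2, Cdc25c and Cdc20, with 1 point per library (1 to 4 from left to right), crosses at 0 for libraries without a peak, and the mean with its SD where all 4 libraries of a genotype had a peak. Ccnb1 and Kif23 were lower in all 4 Brg1 fl/fl libraries, Espl1 had no Brg1 fl/fl peak, and Cdc25c was detected in Brg1 fl/+ libraries 1 and 2 alone.

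Among the other mitotic kinases, 2 of 5 genes were detected throughout and none was called. Aurka, encoding Aurora A of the spindle poles, shared its region with Cstf1 and had folds of 10.4 to 16.1, with a centred difference of 0.08 (limma, adjusted p = 0.681). Melk, a kinase of dividing cells, had the weakest of the complete peaks by rank, with 10.6, 9.75, 5.18 and 7.12 in Brg1 fl/+ and 8.92, 6.01, 8.53 and 6.94 in Brg1 fl/fl libraries, and a difference of 0.14 (limma, adjusted p = 0.653). The genotypes overlapped for both. When the peak centre had to lie inside the promoter window, Melk had a peak in 0 Brg1 fl/+ and 0 Brg1 fl/fl libraries. Plk1, the kinase that promotes mitotic entry and centrosome maturation, had a peak in 1 library of each genotype, Brg1 fl/+ library 1 at a fold of 8.37 and Brg1 fl/fl library 1 at 5.32. Plk4, the kinase of centriole duplication, had 10.4, 12.3 and 11.8 in Brg1 fl/+ libraries 1, 2 and 4 and 12.2, 7.61, 8.79 and 9.55 in Brg1 fl/fl libraries. Nek2, a centrosomal kinase, had 9.32, 8.91 and 4.84 in Brg1 fl/+ libraries 1, 2 and 4 and 5.15, 5.49 and 8.46 in Brg1 fl/fl libraries 1, 3 and 4. The genotypes overlapped for Plk4 and Nek2, and Plk1 had too few peaks to compare.

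The chromosomal passenger complex, which corrects faulty attachments of the spindle and later steers cytokinesis, was detected in part of the libraries for all 4 of its genes. Aurkb, its kinase Aurora B, had weak peaks in Brg1 fl/+ libraries 1 and 4, with folds of 4.25 and 5.44, and in no Brg1 fl/fl library. Birc5, encoding survivin, had 15.6, 16.8, 10.6 and 14.3 in Brg1 fl/+ libraries and 12.7, 12.5 and 11.6 in Brg1 fl/fl libraries 1, 3 and 4. Incenp, the scaffold of the complex, had 16.6, 14.3, 7.50 and 12.3 in Brg1 fl/+ and 8.54, 9.69 and 8.43 in Brg1 fl/fl libraries 1, 3 and 4. Both were missed in Brg1 fl/fl library 2 alone, the shortest list, and their folds overlapped between genotypes. Cdca8, encoding borealin, had 12.6, 10.1 and 7.67 in Brg1 fl/+ libraries 1, 2 and 4 and 8.69, 4.60 and 7.58 in Brg1 fl/fl libraries 1, 2 and 4. Over the 4 genes there were 13 of 16 possible detections in Brg1 fl/+ and 9 of 16 in Brg1 fl/fl. The mean shares per library were 83.3% and 75.8% over all 60 genes. Over protein-coding genes with a peak in any library they were 77.6% and 69.7%.

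Of the 5 spindle assembly checkpoint genes, Mad2l1 was complete. Mad2l1, whose product inhibits Cdc20 at unattached kinetochores, had 12.2, 15.4, 12.5 and 10.2 in Brg1 fl/+ and 14.1, 10.9, 12.3 and 12.4 in Brg1 fl/fl libraries, with a centred difference of 0.20 (limma, adjusted p = 0.321). Bub1, a kinase that recruits checkpoint proteins, had 13.9, 13.0 and 8.81 in Brg1 fl/+ libraries 1, 2 and 4 and 8.97, 5.61, 5.69 and 5.88 in Brg1 fl/fl libraries. Ttk, the checkpoint kinase Mps1, had 14.3, 11.1 and 8.64 in the same Brg1 fl/+ libraries and 7.10, 5.05, 6.48 and 5.88 in Brg1 fl/fl libraries. For Ttk the 3 control folds lay above all 4 Brg1 fl/fl folds, and for Bub1 they did but for a single pair of libraries. The share of all incomplete regions that separated in this way is not given here. In the wider set of regions, fitted without the library that lacked them, Ttk and Bub1 both had a centred difference of −0.54 (limma, adjusted p = 0.0632 and 0.0676). With Brg1 fl/+ library 3, which lacked both peaks, left out of the whole fit, the differences were −0.57 and −0.57 (limma, adjusted p = 0.0374 and 0.0459). Both fits leave out a control library whose fold may have been low, which can enlarge the difference. Bub3, the partner of Bub1, had 7.83, 8.10 and 6.03 in Brg1 fl/+ libraries 1, 2 and 4 and 7.77, 5.61, 5.28 and 7.55 in Brg1 fl/fl libraries, which overlapped. Bub1b, encoding BubR1, had 11.6 and 9.53 in Brg1 fl/+ libraries 1 and 2 and no peak elsewhere.

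The genes that end mitosis differed in how they were detected. Espl1, encoding separase, the protease that cleaves cohesin at anaphase, had folds of 10.7, 8.69, 6.85 and 7.30 in the 4 Brg1 fl/+ libraries and no peak in any Brg1 fl/fl list. The pattern held with peaks of a −log10 q of at least 5, but with one of at least 10, or with lists of equal length, 2 Brg1 fl/+ libraries kept the peak and Brg1 fl/fl libraries still had none. Its weaker control folds were not far above the folds at the edge of detection. Pttg1, encoding securin, the inhibitor of separase, had 10.3 and 9.22 in Brg1 fl/+ libraries 1 and 2 and 5.04 in Brg1 fl/fl library 4. Cdc20, an activator of the anaphase-promoting complex, went the other way, with a fold of 7.69 in Brg1 fl/+ library 1 and of 6.11, 5.74 and 4.94 in Brg1 fl/fl libraries 1, 3 and 4. All 3 Brg1 fl/fl folds of Cdc20 were below the one control fold, and with a −log10 q of at least 10 only that control peak was left. Cdca5, encoding sororin, which protects cohesion, shared its region with Zfpl1 and had 12.9, 12.1, 8.47 and 9.30 in Brg1 fl/+ and 10.0, 9.75 and 9.82 in Brg1 fl/fl libraries 1, 3 and 4. Sgo1, encoding shugoshin, the protector of centromeric cohesin, had among the strongest peaks of the 60, with 19.6, 18.2, 16.9 and 17.1 in Brg1 fl/+ and 16.5, 11.9, 15.1 and 17.1 in Brg1 fl/fl libraries. Its centred difference was −0.05 with an interval of −0.24 to 0.14 (limma, adjusted p = 0.789). Ube2c, the ubiquitin-conjugating enzyme of the anaphase-promoting complex, had folds of 8.52 to 15.2 and a difference of −0.18 (limma, adjusted p = 0.413).

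Among the 10 centromere and kinetochore genes, 5 were detected throughout and none was called. Cenpf, a large kinetochore protein, had 17.4, 17.9, 12.9 and 16.9 in Brg1 fl/+ and 13.9, 9.29, 12.5 and 14.3 in Brg1 fl/fl libraries, with a centred difference of −0.19 (limma, adjusted p = 0.264). Cenpm, of the inner kinetochore, had 13.9, 13.2, 9.96 and 9.84 against 10.9, 7.80, 10.8 and 9.40, with a difference of −0.06 (limma, adjusted p = 0.823). The genes of the Ndc80 complex, which holds microtubules, gave differences of −0.12 for Ndc80, 0.09 for Nuf2 and 0.06 for Spc24 (limma, adjusted p = 0.607, 0.693 and 0.829), with folds of 8.47 to 17.1. In all 5 the folds of the genotypes overlapped.

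The fourth Ndc80 subunit gene, Spc25, had 10.8, 12.4, 7.93 and 8.86 in Brg1 fl/+ and 7.36, 5.43 and 6.75 in Brg1 fl/fl libraries 1, 2 and 3. Cenpa, the histone H3 variant that marks centromeres, had 14.3, 17.0, 8.76 and 12.0 in Brg1 fl/+ and 7.0 and 7.01 in Brg1 fl/fl libraries 3 and 4. For both genes every deposited Brg1 fl/fl fold was below every control fold, among the libraries with a peak. Deposited folds ran lower in Brg1 fl/fl over all tested regions. After division by each library's median fold the genotypes still did not overlap. The closest values were 0.649 and 0.730 for Spc25 (Brg1 fl/fl library 1, Brg1 fl/+ library 4). For Cenpa they were 0.626 and 0.829 (library 3 of each genotype). The share of all incomplete regions that separated in this way is not given here. Cenpe, a kinetochore motor, had 12.9, 6.70 and 7.09 in Brg1 fl/+ libraries 1, 2 and 4 and 4.93, 5.90, 7.30 and 6.91 in Brg1 fl/fl libraries. Cenpk, an inner kinetochore gene whose region also holds the start of Ppwd1, had 19.4, 16.6 and 11.4 in Brg1 fl/+ libraries 1, 2 and 3 and 11.2, 8.41, 12.9 and 9.66 in Brg1 fl/fl libraries. These overlapped, whereas Cenph, of the same inner kinetochore network, had 7.37 and 7.26 in Brg1 fl/+ libraries 1 and 2 and no peak elsewhere.

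Of the 8 kinesin and spindle genes, Hmmr and Tacc3 were complete. Hmmr, encoding a spindle-associated hyaluronan receptor, shared its region with Nudcd2 and had 16.2, 15.5, 12.1 and 14.1 in Brg1 fl/+ and 11.8, 9.65, 10.6 and 11.6 in Brg1 fl/fl libraries. All 4 Brg1 fl/fl folds were lower, but the centred difference of −0.20 did not pass the test (limma, adjusted p = 0.250). Tacc3, which stabilises spindle microtubules, had 9.95, 9.58, 7.40 and 11.1 against 9.40, 7.67, 9.82 and 8.90, with a difference of 0.13 (limma, adjusted p = 0.639).

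Kif11, the motor Eg5 that separates the spindle poles, had 11.4, 11.2 and 11 in Brg1 fl/+ libraries 1, 2 and 4 and 10.3, 9.30, 11.4 and 10.2 in Brg1 fl/fl libraries, close to level. Nusap1, a spindle protein whose region also covers the start of Oip5, had 15.1, 14.3 and 13.8 in the same Brg1 fl/+ libraries and 9.78, 9.73, 11.4 and 11.4 in Brg1 fl/fl libraries. All 4 deposited folds were below the controls, but the uncentred log2 folds of all tested regions shifted by a median of −0.18. After division by each library's median fold the genotypes nearly met, at 1.04 in Brg1 fl/fl library 2 and 1.07 in Brg1 fl/+ library 2. The share of all incomplete regions that separated in this way is not given here. Tpx2, the activator of Aurora A, had 14.7, 10.8 and 7.93 in Brg1 fl/+ libraries 1, 2 and 3 and 7.85, 5.47 and 7.32 in Brg1 fl/fl libraries 1, 2 and 3. Its genotypes did not overlap, though the closest folds, 7.93 and 7.85, nearly met. Kif2c, a kinesin that shortens microtubules, had 9.53, 9.05 and 10.8 in Brg1 fl/+ libraries 1, 2 and 4 and 5.28 and 6.30 in Brg1 fl/fl libraries 3 and 4. Kif22, a chromosome arm motor, had a fold of 6.96 in Brg1 fl/+ library 1 and no peak elsewhere. Kif4, a chromokinesin whose region also covers the start of Pdzd11, had a promoter peak of 13.8 in the same library, and in library 2 a peak of 8.17 in the joined region outside the promoter window. Neither had a Brg1 fl/fl peak in the promoter window. With the window extended to 1000 bp downstream, Kif22 had a peak in all 8 libraries, so its pattern rests on where the window ends, and Kif4 had one in 2 Brg1 fl/+ libraries and still none in Brg1 fl/fl.

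Of the 7 central spindle and cytokinesis genes, 4 were complete. Kif23, the motor subunit of centralspindlin, had 16.8, 15.5, 13.1 and 13.9 in Brg1 fl/+ and 10.3, 10.3, 9.28 and 10.1 in Brg1 fl/fl libraries, which did not overlap. Its centred difference of −0.36 ± 0.11 (SE) narrowly missed the threshold (limma, adjusted p = 0.0562), with means of 14.8 ± 1.67 and 9.97 ± 0.473 (SD, n = 4 each). Without centring or after quantile normalisation it passed (−0.57, limma adjusted p = 0.0312, and −0.39, adjusted p = 0.0473). Without centring, however, all regions shifted by a median of −0.18. Kif23 passed in 4 of the 19 alternatives that tested it, with a limma adjusted p of 0.0312 to 0.215. Anln, encoding anillin of the contractile ring, had 17.6, 15.2, 8.51 and 9.68 in Brg1 fl/+ and 11.1, 6.13, 10.1 and 9.28 in Brg1 fl/fl libraries. Its controls split into a high and a low pair, and the difference was −0.24 (limma, adjusted p = 0.341). Prc1, which bundles the microtubules of the central spindle, had 15.1, 17.4, 14.3 and 13.4 against 13.8, 12.5, 14.3 and 14.9, with a difference of 0.09 (limma, adjusted p = 0.638). Kif20b had folds of 9.42 to 14.4 and a difference of 0.04 (limma, adjusted p = 0.877).

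Racgap1, the partner of Kif23 in centralspindlin, had 9.64 and 9.68 in Brg1 fl/+ libraries 1 and 2 and 7.16, 8.36 and 6.29 in Brg1 fl/fl libraries 1, 3 and 4. Ect2, the exchange factor that activates RhoA, had 15.2, 13.2, 10.5 and 8.32 in Brg1 fl/+ and 7.59, 10.8 and 9.98 in Brg1 fl/fl libraries 1, 3 and 4. Kif20a, a central spindle kinesin with the start of Brd8 in its region, had 10.3, 7.63 and 9.93 in Brg1 fl/+ libraries 1, 2 and 4 and 8.42, 6.23, 7.40 and 7.11 in Brg1 fl/fl libraries. Ect2 and Kif20a overlapped between genotypes. Racgap1 was found in more Brg1 fl/fl than control libraries. Its deposited Brg1 fl/fl folds were below both control folds, but after division by each library's median fold the genotypes overlapped.

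The condensin and mitotic chromosome genes were the most completely detected, with 32 of 32 possible detections in Brg1 fl/+ and 30 of 32 in Brg1 fl/fl. The means per library over protein-coding genes with a peak in any library were 77.6% and 69.7%. Cdca2, encoding repo-man, which recruits phosphatase PP1 to chromosomes, had the best rank of the 60 and shared its region with Kctd9. Its folds were 13.2, 12.5, 10.8 and 12.1 in Brg1 fl/+ and 13.9, 10.9, 14.8 and 14 in Brg1 fl/fl libraries. After centring, all 4 Brg1 fl/fl values were above the controls, and the difference of 0.34 ± 0.10 (SE) did not pass the threshold (limma, adjusted p = 0.0517). Without centring it was 0.14 (limma, adjusted p = 0.545). Smc4, the ATPase shared by condensins I and II, had its start beside that of Ift80 and folds of 13.2, 11.1, 13.2 and 12.9 against 14.2, 10.5, 14.2 and 13.2, with a centred difference of 0.25 (limma, adjusted p = 0.194). Its partner Smc2 had 16.4, 13.8, 11.4 and 9.89 against 9.45, 8.38, 10.2 and 13.0, with a difference of −0.12 (limma, adjusted p = 0.637). The condensin partners therefore had estimates of opposite sign, neither of which passed.

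Ncapg, a condensin I subunit, had 15.5, 16.8, 11.6 and 16.0 in Brg1 fl/+ and 15.2, 13.9, 15.7 and 11.9 in Brg1 fl/fl libraries, with a difference of 0.13 (limma, adjusted p = 0.498). Ncapd2, with folds of 10.0 to 16.0, and Mki67, the proliferation marker Ki-67, with 9.42 to 14.3, had differences of 0.06 and 0.02 (limma, adjusted p = 0.781 and 0.946). Ncaph, another condensin I subunit, had 11.2, 11.9, 10.8 and 7.07 in Brg1 fl/+ and 7.50, 8.16 and 9.70 in Brg1 fl/fl libraries 1, 3 and 4. Top2a, the topoisomerase that untangles sister chromatids, had 14.2, 12.2, 8.72 and 15.7 in Brg1 fl/+ and 8.06, 11.1 and 7.60 in Brg1 fl/fl libraries 1, 3 and 4. All 5 overlapped between genotypes, and the 2 incomplete genes were missed in the shortest list alone.

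Across the 25 complete genes, separation of the genotypes by centred fold was found for Ccnb1, Kif23 and Hmmr, which were lower in all 4 Brg1 fl/fl libraries (3 of 25, against 4.62% of all regions), and for Cdca2 and Cdca3, which were higher (2 of 25, against 7.68%). The controls also differed among themselves. The deposited fold was higher in both Brg1 fl/+ libraries 1 and 2 than in both 3 and 4 at 18 of the 25 promoters (72.0%, against 56.7% of all regions). After centring this held at 6 (24.0%, against 19.5%), and the reverse at 2 (8%, against 26.3%). Within the controls the centred log2 fold ran from −0.33 to 0.36 at Anln and from −1.03 to −0.38 at Melk. At Ccnb1 it ran from 0.03 to 0.45 in Brg1 fl/+ and from −0.49 to −0.18 in Brg1 fl/fl libraries.

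Other genes of mitosis were examined in the same way. Of 83 further mitotic genes, 80 had a promoter peak in at least 1 library and 47 in all 8, with 20 found in fewer and 8 in more Brg1 fl/fl libraries. Among the 10476 protein-coding genes with a peak in any library, 46.1% had it in all 8, 32.4% in fewer and 11.5% in more Brg1 fl/fl libraries. None had the pattern of Espl1. Of the 47 tested, 0 were lower and 1 was higher in Brg1 fl/fl, against 1.96% of all 4244 regions lower and 2.24% higher. The gene called higher was Cenps, a kinetochore and DNA repair gene, with a difference of 0.43 (limma, adjusted p = 0.0491). The median over the 47 was 0.07. Ccna2, encoding cyclin A2, had folds of 16.0, 16.8, 13.3 and 11.1 in Brg1 fl/+ and 13.5, 12.4, 14.3 and 13.6 in Brg1 fl/fl libraries, with a difference of 0.13 (limma, adjusted p = 0.483).

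Few distal peaks lay in the stretch searched near the 60 genes, and no count near other genes is given here. Between 10000 bp upstream of a gene and its end, 5 regions outside all promoter windows were found, at 4 genes. Of these, 3 were found in fewer Brg1 fl/fl libraries and 0 in more, against 63.4% in fewer among all 6188 distal regions. The 2 regions upstream of Aurkb, at −5251 and −4329 bp from its start, were detected in equal numbers of libraries of each genotype, 2 and 2 for the farther one and 3 and 3 for the nearer, although the Aurkb promoter had no Brg1 fl/fl peak. A region at −8168 bp from the start of Nek2 was found in 3 Brg1 fl/+ libraries and 1 Brg1 fl/fl library. Regions inside Nuf2 and Nusap1 were found in 2 Brg1 fl/+ libraries each, with 1 and 0 Brg1 fl/fl libraries. The folds of the 5 regions were 3.86 to 9.40, lower than those of most mitotic promoters.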

How the data were processed

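ATAC-seq was analysed in 8 libraries, 4 per genotype. Per the labels and the study's methods, the authors used Bowtie2 (mm10) for alignment and MACS2 for the peaks, which were deposited as 1 list per library. How Tn5 insertion offsets, duplicates and mitochondrial reads were handled is not given in the sources used here. The deposited lists hold, per peak, a score, the fold over local background (a ratio), a −log10 p-value, a −log10 q-value and the summit position. No read counts or depths were in the lists, and 8 RNA-seq samples were not analysed here. Groups came from the sample titles, and replicate numbers are those of the titles.

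Start sites were taken from GENCODE M21 (GRCm38). Peaks of all libraries that overlapped by at least 1 bp or touched were joined into 16512 regions, 10324 of them at promoters. The fold of a region was the largest of its peaks in a library. The log2 fold of the 4244 promoter regions with a peak in all 8 libraries was centred per library on its median and fitted with limma 3.58.1 (trend, R 4.3.3), with Benjamini-Hochberg adjustment over all regions, so genes that lost their peak were not tested. The study itself compared read coverage. Whole fragment numbers were recovered from fold and p-value for 98.0 to 99.8% of peaks per library (tolerance 0.002 in −log10 p), as an alternative. Motifs were searched with pysam 0.24.0 from 250 bases upstream to 50 downstream of the start used by most coding transcripts (the 5′-most where tied), on both strands. Python 3.11.15, numpy 2.4.6 and pandas 2.3.3 were used, and the steps were tested on simulated data.

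The 60 genes and all lists were chosen with earlier results of these data known. Values per library are given for genes called, genes without a peak in all 8 libraries, the 5 largest and 5 smallest differences, the 5 best and 5 worst ranks by q-value, Cdkn3, and Ccnb1, Cdk1, Plk1, Aurkb and Cdc20. Ccna2, Cenps, Ube2c, Aurka, Ndc80, Nuf2, Spc24, Kif20b, Ncapd2 and Mki67 were named beside them after their values were seen. Alternatives changed the peak threshold, window, centring, filter and fit, or left out libraries. Some marker genes are not reported here.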

Additional observations from a re-analysis of the deposited data

Results flagged for a closer look

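Of 55 groups of 4 libraries examined by Dixon's gap test, 3 had a library that stood apart, and chance alone flags about 1 in 20 groups. Brg1 fl/fl library 2 had a promoter peak at 37 of the 60 mitotic genes, whereas the other 3 libraries of that genotype had 47 to 49. At the Smc4 promoter, Brg1 fl/+ library 2 had a fold of 11.1, below the 12.9 to 13.2 of the other 3. At the Bub1 promoter, Brg1 fl/fl library 1 had a fold of 8.97, above the 5.61 to 5.88 of the other 3.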

How the results depend on the processing

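The mean difference of −4.5 genes with a promoter peak moved by less than its pooled SD of 7.93 genes in every alternative tried. That SD is larger than the difference, so this does not show a stable difference. Over the alternatives the difference was −12 to 3 genes, with the sign reversed against Brg1 fl/+ libraries 3 and 4 only. The count of 25 genes seen in all 8 libraries stayed within 1.5 times. The subsets of Brg1 fl/+ libraries were chosen after seeing the data. Calls among the mitotic genes were 1 with limma as described, 0 with Brg1 fl/+ libraries 3 and 4 only and with peaks covering at least 50% of the region (which dropped Ccnb1 from the fit), 2 without centring, with quantile normalisation, with regions in at least 3 libraries of each genotype, with a −log10 q of at least 5 and with region centres inside the window, 3 with recovered fragments, 4 with Brg1 fl/+ libraries 1 and 2 only, and 0 to 4 with 1 library left out. The 178 calls over all regions became 67 without the intensity trend, 39 with libraries averaged in pairs, 18 and 272 with Brg1 fl/+ libraries 3 and 4 or 1 and 2 only, 410 with recovered fragments, 306 with regions in at least 3 libraries of each genotype, 95 with the 50% rule, and 22 to 270 with 1 library left out. The replicate block gave 105 calls over all regions and 1 among the mitotic genes, Ccnb1, and same-numbered libraries did not vary together (r of −0.083 to 0.011), so the numbers were not used as pairs. The median difference of the mitotic genes of 0.06 became −0.15 without centring, −0.021 with Brg1 fl/+ libraries 1 and 2 only, −0.0052 with regions in at least 3 libraries of each genotype, −0.018 with the 50% rule, and −0.0057 to 0.068 with 1 library left out. Ccnb1 passed in 17 of the 19 alternatives that tested it, Kif23 in 4 of 19 and Cdca2 in 5 of 20, and none of the 3 changed sign. The cause of these changes was not tested. The depth of the libraries is unknown, and a promoter without a peak may lie below detection.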
